A study of Homo sapiens with 22 samples.

Results

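The 7 genes described here are the aryl hydrocarbon receptor AHR, its partner ARNT, its repressor AHRR, and 4 genes that the receptor is known to switch on, CYP1A1, CYP1B1, TIPARP and ALDH3A1. They were chosen by gene symbol from 64728 gene names in 4 deposited RNA-seq tables, and all 7 were found in each table. The choice was made with earlier results of the same comparisons known, so the levels, fold changes and calls of these 7 genes are given as a description and not as independent evidence. The cells were of the HN-6 line, which comes from a human squamous carcinoma of the head and neck. Poly(A) RNA was sequenced in a stranded protocol. The cells of each of the 22 libraries had been given 1000 U/ml of interferon-β over the last 24 h, so every difference below is a difference within interferon-treated cells. SMYD3, a lysine methyltransferase, was removed in a knockout line called 5-3, set against the parental cells (3 libraries each). It was lowered for 72 h with the siRNA si1SMYD3, against a negative control siRNA (3 libraries each), and with 081, an antisense oligonucleotide (ASO), whose control was phosphate-buffered saline (PBS), with 2 libraries each. UHRF1, which guides maintenance DNA methylation, was lowered for 72 h with an siRNA against a separate set of negative control siRNA libraries (3 each). The knockout is 1 clone, each knockdown used 1 reagent, and PBS is not a control oligonucleotide, so effects of a clone or a reagent and of the loss of SMYD3 or UHRF1 cannot be told apart.

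AHR is a ligand-activated transcription factor of the bHLH-PAS family. Without a ligand it rests in the cytoplasm with HSP90 and other chaperones. Dioxins, polycyclic aromatic hydrocarbons or tryptophan metabolites send it to the nucleus, where it pairs with ARNT and binds xenobiotic response elements. Its textbook targets are the cytochrome P450 enzymes CYP1A1 and CYP1B1, and it also induces AHRR and TIPARP, which act back on it as brakes. AHR is active in keratinocytes and other barrier epithelia, where it takes part in differentiation and the handling of environmental chemicals.

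The promoters of 3 members that lay on different sides of their controls in the comparisons below are shown. AHR, ARNT and CYP1B1 did so too and are not printed, and of AHRR and TIPARP only the first window is. Each printed window holds a match to the response element core, whereas the ARNT window holds none. CYP1A1 is the classical readout of the receptor, while AHRR and TIPARP are its feedback genes. Each line runs 5′ to 3′ on the gene's strand, in 300 bases with 250 before the annotated start (RefSeq, GRCh38.p14). Capitals mark GCGTG, the core of the xenobiotic response element, or its opposite-strand form CACGC. The windows are chr15:74725479-74725778 on the minus strand for CYP1A1, chr5:321464-321763 on the plus strand for AHRR and chr3:156674340-156674639 on the plus strand for TIPARP.
CYP1A1: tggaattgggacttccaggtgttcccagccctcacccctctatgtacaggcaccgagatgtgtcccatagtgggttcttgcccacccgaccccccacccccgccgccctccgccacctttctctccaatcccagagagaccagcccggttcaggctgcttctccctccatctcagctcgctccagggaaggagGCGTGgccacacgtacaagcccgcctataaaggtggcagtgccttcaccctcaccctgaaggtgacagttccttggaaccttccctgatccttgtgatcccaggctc
AHRR: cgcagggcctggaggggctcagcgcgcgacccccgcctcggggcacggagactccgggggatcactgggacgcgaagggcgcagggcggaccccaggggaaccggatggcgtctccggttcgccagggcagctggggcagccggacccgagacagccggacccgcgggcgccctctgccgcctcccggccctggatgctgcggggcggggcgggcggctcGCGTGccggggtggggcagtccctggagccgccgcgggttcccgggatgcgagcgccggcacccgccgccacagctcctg
TIPARP: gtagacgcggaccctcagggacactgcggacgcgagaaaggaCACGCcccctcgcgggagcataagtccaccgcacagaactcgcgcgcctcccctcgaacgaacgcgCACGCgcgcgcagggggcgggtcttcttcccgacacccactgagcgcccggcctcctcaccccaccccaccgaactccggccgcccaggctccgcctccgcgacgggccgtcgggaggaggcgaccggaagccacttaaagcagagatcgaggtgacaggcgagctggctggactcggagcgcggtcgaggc

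RefSeq promoter windows were matched for 5 of the 7 members, 8 windows in all, and CYP1B1 and ALDH3A1 had no entry. GCGTG, counted on both strands, was found in 36.5% of the 35116 promoter windows of all genes, so its presence alone marks no gene. AHR held 1 match, at 37 bases after its start. CYP1A1 held 1, at 57 bases before its start. TIPARP held 2 on the opposite strand in its first window, and none in its other 2 windows. No match was found in the ARNT window. The longer element TNGCGTG (opposite strand CACGCNA), which contains the core, occurred in 5.51% of all windows. Among the members' windows it was found once, at 32 bases before the first AHRR start, where it overlaps the core at 30 bases before that start. The second AHRR window held 2 further core matches. These are matches of letters, sequence outside the windows was not searched, and the libraries hold no measurement of binding.

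**Figure D1:**
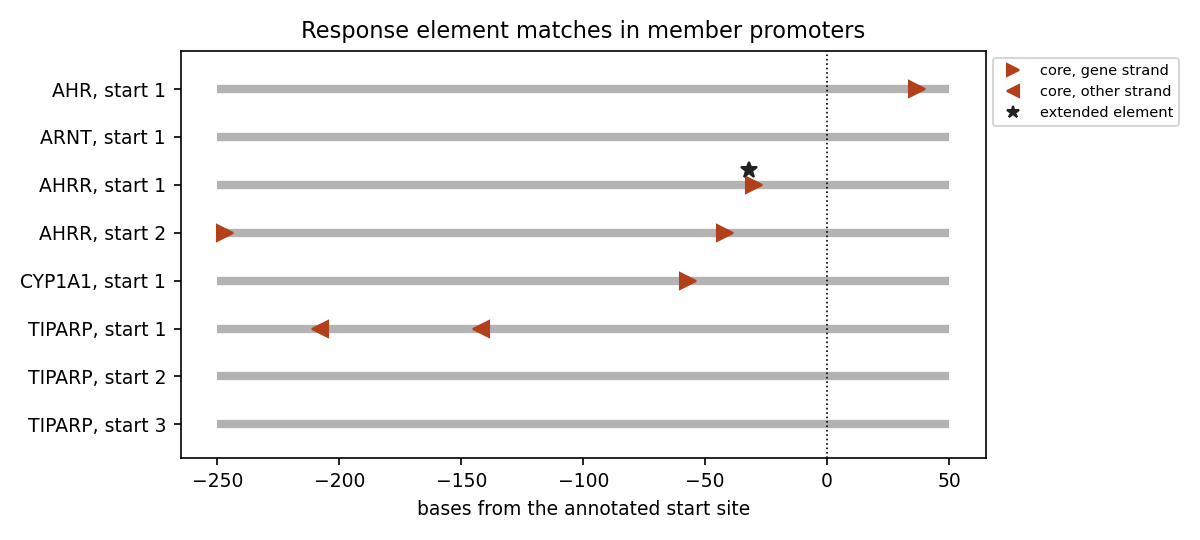
Matches to the xenobiotic response element in the 8 RefSeq promoter windows of 5 members; the x axis gives the distance in bases from the annotated start, each grey bar is 1 window, triangles are core matches pointing along their strand and the star is the extended element. AHR, AHRR, CYP1A1 and the first TIPARP window hold core matches, and the ARNT window holds none.

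Each table was deposited and scaled separately. The knockout table lists counts that were already divided by 1 factor per library, called scaled counts here, and the other tables list raw counts, given here as CPM, the reads of a gene scaled to a common library total. Libraries held 24783605 to 47702859 reads in the knockout table, 32441991 to 54121262 in the SMYD3 siRNA table, 30792923 to 32045158 in the ASO table and 57588142 to 62921144 in the UHRF1 siRNA table. SMYD3 averaged 93.6 ± 18.5 scaled counts in the knockout clone and 322 ± 18.3 in parental cells (SD, n = 3 each). It averaged 2.72 ± 0.120 CPM with its siRNA and 15.8 ± 1.95 CPM with control siRNA (n = 3 each), and 3.65 ± 0.662 CPM with the ASO and 22 ± 0.966 CPM with PBS (n = 2 each). UHRF1 averaged 2.17 ± 0.428 CPM with its siRNA and 66.1 ± 2.03 CPM with control siRNA (n = 3 each). UHRF1 was also low with the SMYD3 siRNA, at 2.91 ± 0.489 CPM against 10.3 ± 1.59 CPM with control siRNA. SMYD3 was lower with UHRF1 siRNA too, at 8.19 ± 0.494 CPM against 12.8 ± 0.998 CPM with control siRNA (log2 fold change -0.57 ± 0.09, edgeR adjusted p = 3.32e-07). Mitochondrial genes took 4.82% to 4.88% of the reads in the knockout clone and 14.9% to 15.7% in parental cells, and their part in the knockout results was not tested. Squamous markers (KRT5, TP63 and 7 others) had 8 or 9 of the 9 above 1 CPM in every group. Their sum was 3098 to 3182 CPM in the knockout clone against 1506 to 1557 CPM in parental cells, 2262 to 2382 CPM with SMYD3 siRNA against 1881 to 2006 CPM, 2758 to 2818 CPM with the ASO against 2655 to 2739 CPM, and 7784 to 8085 CPM with UHRF1 siRNA against 5743 to 5983 CPM. Leukocyte markers summed to 291 to 310 CPM in the knockout clone and 47.7 to 51.2 CPM in parental cells, and to 13.9 to 14.2 CPM with UHRF1 siRNA and 4.62 to 5.62 CPM with control siRNA, and at most 4 of the 7 were above 1 CPM in any group. Fibroblast markers summed to 12.5 to 14.2 CPM in the knockout clone and 58.6 to 62.2 CPM in parental cells, to 211 to 237 CPM with SMYD3 siRNA and 135 to 159 CPM with control siRNA, to 84.6 to 103 CPM with the ASO and 110 to 115 CPM with PBS, and to 482 to 551 CPM with UHRF1 siRNA and 101 to 103 CPM with control siRNA. At most 2 of the 6 were above 1 CPM in any group, and DCN and PDGFRA had 0 reads with UHRF1 siRNA. Endothelial markers summed to 1.03 to 1.78 CPM in the knockout clone and 4.80 to 5.89 CPM in parental cells, to 6.65 to 7.24 CPM with SMYD3 siRNA and 12.9 to 15.6 CPM with control siRNA, and to 22 to 23.4 CPM with UHRF1 siRNA and 8.26 to 9.16 CPM with control siRNA, with at most 3 of 5 above 1 CPM. The 4 hepatocyte markers summed to at most 0.686 CPM where listed. The knockout table lists only 4 of the 7 leukocyte, 2 of the 6 fibroblast, 2 of the 5 endothelial and 0 of the 4 hepatocyte markers. Its sums for these lists are therefore partial. The part of any marker list in the members' values was not tested. In bulk RNA, fewer cells that make a transcript and less of it per cell cannot be told apart.

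The direction of the called members differed between comparisons, and it was mixed within the knockout clone and with UHRF1 siRNA. A gene is called when its adjusted p in the fit over all genes of its table is below 0.05. In the knockout clone 4 members were called higher and 3 lower, where 84.6% of all genes tested were called, 42.1% higher and 42.5% lower. With SMYD3 siRNA 5 members were called higher, 0 lower and 1 was not called, against 48.6% of all genes called (24.2% higher, 24.4% lower). CYP1A1 did not pass the filter on low counts in that table. With the SMYD3 ASO 0 members were called higher, 5 lower and 2 were not called, against 21.7% of all genes called (11.3% higher, 10.3% lower). With UHRF1 siRNA 3 were called higher, 2 lower and 2 were not called, against 64.7% of all genes called (32.0% higher, 32.7% lower). The libraries of the groups did not overlap for 7, 5, 6 and 7 members in these 4 comparisons, where 85.8%, 57.3%, 62.0% and 68.4% of all genes tested did not overlap. No member was called in the same direction in all 3 SMYD3 comparisons. Of the 7, 5 (ARNT, AHRR, CYP1A1, CYP1B1 and TIPARP) were called higher in at least 1 of them and lower in another. The share of all genes with such calls was not counted, so these counts cannot be read as particular to the members. In the knockout clone and with SMYD3 or UHRF1 siRNA, the shares of all genes called were so high that a call by itself says little of these genes. The share was lower with the ASO, but its calls rest on 2 libraries per group. The members were also chosen with earlier results known.

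**Figure D2:**
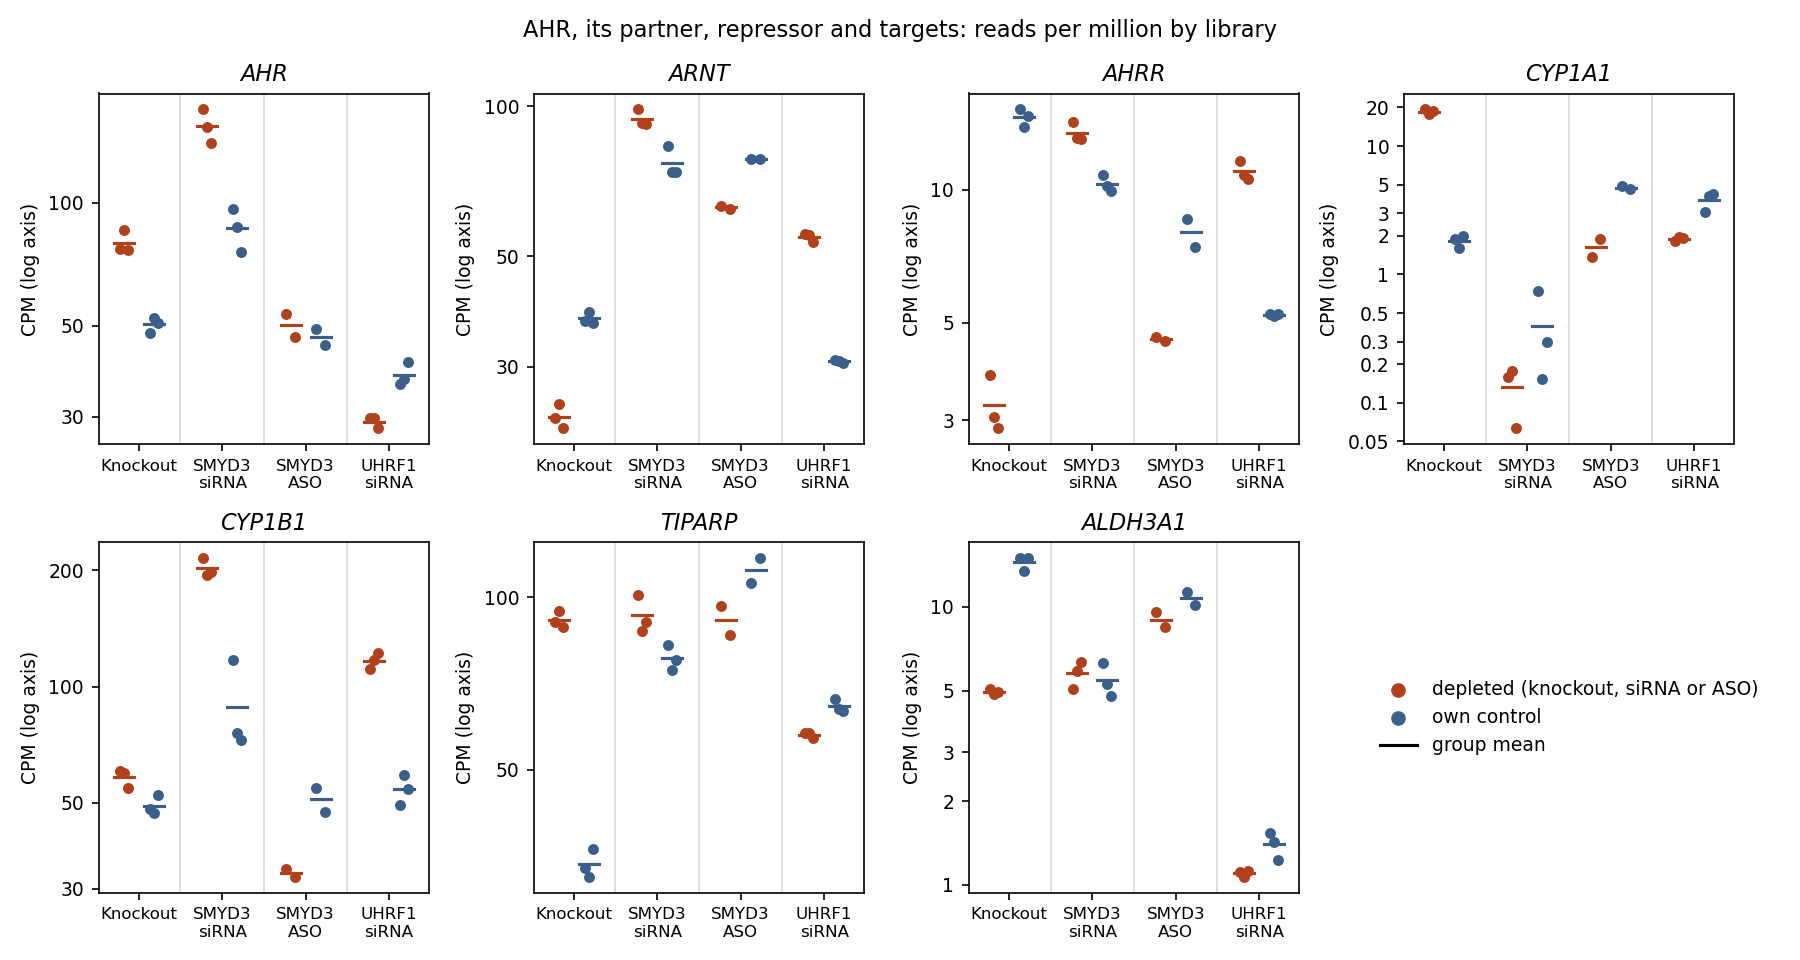
Level of each member in every library in CPM on a log axis; within each comparison the depleted libraries (orange) stand left of their own controls (blue), points are libraries and lines are group means. CYP1A1 in the knockout clone lies between 17.7 and 19.3 CPM, above the parental libraries, while AHR with the ASO overlaps PBS.

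AHR, the receptor itself, lies on chromosome 7 (16916359 to 17346152, plus strand, GENCODE 29 on GRCh38). Its transcript was about 1.81-fold higher in the knockout clone, with 2737, 3053 and 2699 scaled counts against 1498, 1618 and 1557 in parental cells (log2 fold change 0.86 ± 0.05, SE). A rise of close size was seen with SMYD3 siRNA, with 169, 153 and 140 CPM against 96.5, 87.4 and 75.9 CPM with control siRNA (0.96 ± 0.09). All libraries of the knockout clone and of SMYD3 siRNA stood above their controls in these 2 comparisons. With the ASO, AHR had 53.4 and 46.9 CPM against 49.2 and 45.0 CPM with PBS, the groups overlapped and the gene was not called (0.16 ± 0.07). With UHRF1 siRNA it fell, to 29.7, 29.7 and 28.1 CPM against 36.0, 37.0 and 40.8 CPM with control siRNA (-0.31 ± 0.06). AHR was thus called higher in 2 comparisons and lower in 1. AC019117.2, a gene that overlaps AHR on the same strand, had at most 3 reads in any library of the ASO and UHRF1 siRNA tables. The knockout and SMYD3 siRNA tables, in which AHR was called higher, do not list it. The antisense gene AC073332.1 overlaps AHR on the other strand, and its level was not examined. The AHR call with the ASO depends on the libraries used, since edgeR called it without ASO replicate 2 (0.24, adjusted p = 0.0189).

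ARNT is the obligate DNA-binding partner of AHR and also of the hypoxia factors, and lies on chromosome 1 (150809705 to 150876768, minus strand). It was lower in the knockout clone, at 841, 898 and 797 scaled counts against 1155, 1195 and 1131 in parental cells (-0.46 ± 0.06). SMYD3 siRNA gave the opposite, with 98.5, 92.5 and 92.3 CPM against 83.3, 73.8 and 73.8 CPM with control siRNA (0.42 ± 0.07). The ranges of the groups were apart in both comparisons, in opposite directions. The ASO went with the knockout clone, at 63.2 and 62.2 CPM against 78.4 and 78.2 CPM with PBS (-0.25 ± 0.05). The largest change of ARNT was the rise with UHRF1 siRNA, to 55.5, 55.2 and 53.3 CPM against 31, 30.9 and 30.6 CPM with control siRNA (0.90 ± 0.06, 1.86-fold). AHR and ARNT, which act as a pair, therefore moved in the same direction with SMYD3 siRNA and in opposite directions in the knockout clone and with UHRF1 siRNA.

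AHRR resembles AHR but does not activate transcription, and competes with it for ARNT and for the response elements. It lies on chromosome 5 (304176 to 438291, plus strand). The knockout clone held 135, 109 and 102 scaled counts of AHRR against 472, 430 and 450 in parental cells (-1.97 ± 0.11). That is 0.255 of the parental level and the largest fall among the members. With SMYD3 siRNA it rose instead, to 14.2, 13.1 and 13 CPM against 10.8, 10.2 and 9.92 CPM with control siRNA (0.51 ± 0.09). With the ASO it fell, to 4.63 and 4.55 CPM against 8.57 and 7.43 CPM with PBS (-0.73 ± 0.13). With UHRF1 siRNA the level was 2.22-fold higher, at 11.6, 10.8 and 10.6 CPM against 5.24, 5.18 and 5.22 CPM with control siRNA (1.15 ± 0.10). AHRR and ARNT were called in the same direction in all 4 comparisons. AHRR overlaps PDCD6 on the same strand, so reads of the shared stretch may be split between them. PDCD6 was lower in the knockout clone (-0.21 ± 0.04) and was not called in the other comparisons. Its values there were -0.13 ± 0.08 with SMYD3 siRNA, -0.12 ± 0.10 with the ASO and 0.17 ± 0.10 with UHRF1 siRNA. These log2 changes were smaller than those of AHRR, but PDCD6 was more abundant. It averaged 4801 against 5543 scaled counts in the knockout table and 113 against 135 CPM in the SMYD3 siRNA table. In both, its change in level exceeded that of AHRR. Its control level was lower in the other tables, at 14.8 CPM with PBS and 16.4 CPM in the UHRF1 siRNA table. Whether shared reads were counted alike in all tables was not tested, nor was their part in the AHRR values.

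TIPARP (also PARP7) transfers single ADP-ribose units onto proteins, AHR among them, and dampens both AHR and interferon signalling. It lies on chromosome 3 (156673235 to 156706770, plus strand). It rose 3.06-fold in the knockout clone, with 3209, 3352 and 3129 scaled counts against 1050, 1001 and 1116 in parental cells (1.61 ± 0.05). With SMYD3 siRNA the rise was smaller, to 101, 87.4 and 90.5 CPM against 82.6, 74.5 and 77.6 CPM with control siRNA (0.38 ± 0.07). In both, the depleted libraries lay above the controls. With the ASO it was lower, at 96.6 and 86.0 CPM against 106 and 117 CPM with PBS (-0.22 ± 0.07). This call was lost in edgeR without ASO replicate 2 (-0.15, adjusted p = 0.149) and without PBS replicate 2 (-0.13, adjusted p = 0.315), and in DESeq2 (-0.22, adjusted p = 0.0601). With UHRF1 siRNA, TIPARP had 57.9, 58.0 and 56.7 CPM against 66.3, 63.9 and 63.3 CPM with control siRNA, and was not called (-0.09 ± 0.05). The fold changes of the count tables include a scaling between libraries (TMM) that CPM do not, and the separation in CPM here is larger than the fitted change. TIPARP-AS1, which overlaps the 5′ end of TIPARP on the other strand, was not called in the 3 tables that list it (-0.13 ± 0.17 with SMYD3 siRNA, -0.33 ± 0.20 with the ASO and 0.14 ± 0.33 with UHRF1 siRNA).

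CYP1A1 oxidises polycyclic aromatic hydrocarbons and is the most sensitive classical target of AHR. It lies on chromosome 15 (74719542 to 74725610, minus strand), and its single core match is marked in the promoter above. It had the largest change of any member, with 684, 629 and 662 scaled counts in the knockout clone against 59.0, 49.3 and 60.9 in parental cells (3.53 ± 0.11, 11.5-fold). These values rest on 2056 reads in the knockout clone and 175 in parental cells. In the other comparisons CYP1A1 was lower in the depleted cells or too scarce to test. The ASO libraries held 1.37 and 1.88 CPM against 4.85 and 4.62 CPM with PBS (-1.47 ± 0.18). With UHRF1 siRNA the level was 1.81, 1.97 and 1.91 CPM against 3.04, 4.07 and 4.22 CPM with control siRNA (-0.92 ± 0.17). The groups were apart in both. In the SMYD3 siRNA table the gene had 16 reads over the siRNA libraries and 55 over the control libraries. That is 0.128 CPM (95% Poisson interval 0.0733 to 0.208) against 0.417 CPM (0.314 to 0.543), intervals that cover counting error only. The libraries overlapped, with 0.158, 0.178 and 0.0633 CPM against 0.749, 0.154 and 0.296 CPM, so counting intervals understate the spread. Without the filter edgeR gave -1.53 (adjusted p = 0.00205). In the leave-out fits that kept the gene the value was -1.83 to -1.13, with adjusted p between 0.00895 and 0.15, so the call depends on the libraries. CYP1A1 was called higher in the knockout clone and in no other comparison.

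CYP1B1, the sister enzyme that oxidises polycyclic aromatic hydrocarbons and oestradiol, lies on chromosome 2 (38066973 to 38109902, minus strand). It was modestly higher in the knockout clone, at 2142, 2114 and 1926 scaled counts against 1503, 1451 and 1605 in parental cells (0.44 ± 0.05). The rise was 2.50-fold with SMYD3 siRNA, at 215, 194 and 198 CPM against 117, 75.9 and 72.9 CPM with control siRNA (1.32 ± 0.15), where control replicate 1 stood above the other control libraries. It was 2.27-fold with UHRF1 siRNA, at 111, 117 and 122 CPM against 49.4, 58.9 and 54.2 CPM with control siRNA (1.18 ± 0.06). The ASO gave a fall, to 33.8 and 32.2 CPM against 54.8 and 47.5 CPM with PBS (-0.57 ± 0.07). CYP1A1 and CYP1B1 were thus both higher in the knockout clone and both lower with the ASO, while with UHRF1 siRNA CYP1A1 was lower and CYP1B1 higher. CYP1B1 overlaps the antisense gene CYP1B1-AS1, and whether counting used strand is not given in the sources used here. CYP1B1-AS1 was at 3.77 ± 0.117 CPM with SMYD3 siRNA and 2.89 ± 0.649 CPM with control siRNA (0.49 ± 0.16). It was at 1.03 ± 0.192 CPM with UHRF1 siRNA and 0.379 ± 0.116 CPM with control siRNA (1.51 ± 0.34). With the ASO it was at 1.98 ± 0.365 CPM against 2.85 ± 0.724 CPM with PBS and was not called (-0.46 ± 0.22). Its direction was that of CYP1B1 in each of these, and its level was a small part of the CYP1B1 level. RMDN2, which overlaps the 3′ end of CYP1B1 on the other strand, was lower in the knockout clone (-0.62 ± 0.13) and with UHRF1 siRNA (-0.59 ± 0.13), higher with SMYD3 siRNA (0.49 ± 0.10) and not called with the ASO (0.22 ± 0.12). Upper quartile scaling moved the median of all genes in the knockout comparison by -0.28, and with it CYP1B1 was 0.16 and ARNT -0.73 there, both still called.

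ALDH3A1 oxidises aromatic and lipid-derived aldehydes and is known as an AHR-inducible gene in liver and carcinoma lines. It lies on chromosome 17 (19737984 to 19748943, minus strand). In the knockout clone it fell, to 180, 173 and 174 scaled counts against 466, 417 and 460 in parental cells (-1.34 ± 0.08), the opposite of CYP1A1 in the same libraries. With SMYD3 siRNA it had 5.08, 5.89 and 6.33 CPM against 6.30, 5.27 and 4.79 CPM with control siRNA, and the groups overlapped (0.22 ± 0.13). With the ASO it had 9.58 and 8.44 CPM against 11.3 and 10.2 CPM with PBS (-0.19 ± 0.11). Neither difference was called. UHRF1 siRNA gave 1.11, 1.07 and 1.12 CPM against 1.54, 1.43 and 1.23 CPM with control siRNA, on 64 to 95 reads per library, and was not called (-0.28 ± 0.24). The SMYD3 siRNA value was called in edgeR without siRNA replicate 1 (0.34, adjusted p = 0.0369).

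**Figure D3:**
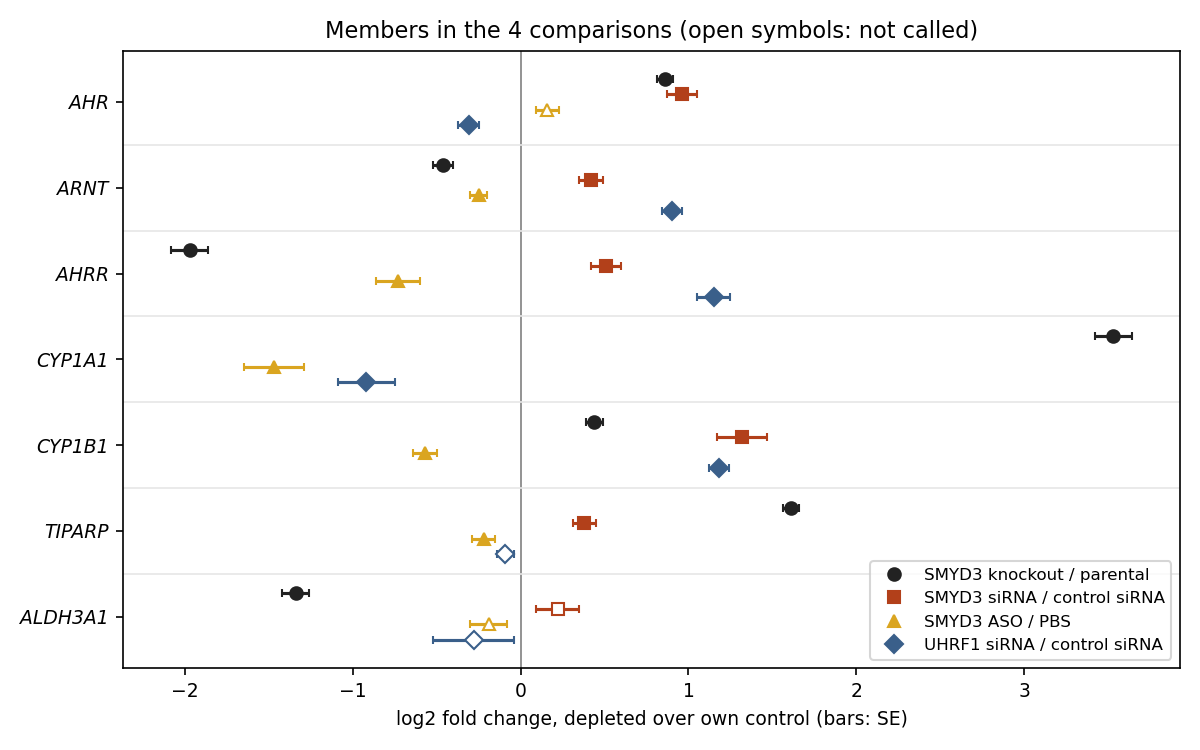
Log2 fold change of each member, depleted over own control, with standard errors as bars, which were derived from the F statistic in the edgeR fits. Filled symbols are called and open symbols are not. CYP1A1 has no SMYD3 siRNA point because it did not pass the filter. CYP1A1 reaches 3.53 in the knockout clone and -1.47 with the ASO, and ARNT and AHRR lie on the same side of 0 as each other in every comparison.

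The order of the levels per length could be read in the ASO and UHRF1 siRNA tables, which give exon lengths. With the ASO, TIPARP was the most abundant at 19.0 RPKM (CPM divided by exon length in kilobases), followed by ARNT at 9.72, AHR at 6.23, CYP1B1 at 5.51, ALDH3A1 at 2.32, AHRR at 0.573 and CYP1A1 at 0.484 RPKM. With PBS the order was TIPARP at 23.2, ARNT at 12.1, CYP1B1 at 8.55, AHR at 5.85, ALDH3A1 at 2.78, CYP1A1 at 1.41 and AHRR at 0.999 RPKM. The ranges of neighbouring genes were apart in both groups, and the closest pair was AHRR, at 0.568 and 0.578 RPKM, and CYP1A1, at 0.408 and 0.560 RPKM, with the ASO. With UHRF1 siRNA, CYP1B1 was the most abundant member at 19.5 RPKM, ahead of TIPARP at 12, ARNT at 8.48, AHR at 3.62, AHRR at 1.38, CYP1A1 at 0.564 and ALDH3A1 at 0.284 RPKM. With its control siRNA TIPARP led at 13.4, ahead of CYP1B1 at 9.05, ARNT at 4.78, AHR at 4.71, CYP1A1 at 1.12, AHRR at 0.651 and ALDH3A1 at 0.361 RPKM, and the ranges of ARNT and AHR overlapped.

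Other genes of the pathway were taken from 5 lists with 62 genes. The lists were written from textbook knowledge but with earlier results of these data known, so their counts and medians are a description. The genes named below are those with the largest called changes of their list. The counts stand beside the shares of all genes called higher and lower given above, which were 42.1% and 42.5% in the knockout clone, 24.2% and 24.4% with SMYD3 siRNA, 11.3% and 10.3% with the ASO, and 32.0% and 32.7% with UHRF1 siRNA, and no list was tested against all genes. For the proteins that hold AHR in the cytoplasm, serve as its coactivators or take part in its ubiquitin ligase (11 tested), 7 rose and 1 fell in the knockout clone, with a median log2 fold change of 0.67 against -0.02 over all genes tested. With upper quartile scaling these were 7 and 4 (median 0.39, against -0.31 over all genes). DDB1, a subunit of the CUL4 ubiquitin ligase, had 15685 ± 57.6 scaled counts in the knockout clone and 5330 ± 178 in parental cells (1.56 ± 0.03). The chaperones HSP90AB1 (1.37 ± 0.03) and HSP90AA1 (0.97 ± 0.03) rose as well. With SMYD3 siRNA 5 rose and 2 fell (median 0.17), led by the coactivator NCOA2 (0.72 ± 0.09), the acetyltransferase CREBBP (0.69 ± 0.08) and the ligase scaffold CUL4B (0.66 ± 0.07). With the ASO 3 rose and 0 fell (median 0.02), namely HSP90AB1 (0.21 ± 0.07), the cochaperone PTGES3 (0.18 ± 0.06) and CUL4B (0.17 ± 0.06), and each of these calls was lost in at least 1 leave-out fit. With UHRF1 siRNA 7 rose and 3 fell (median 0.47), with NCOA2 at 105 ± 3.90 CPM against 37.5 ± 1.78 CPM with control siRNA (1.56 ± 0.05), the kinase SRC (1.18 ± 0.05) and CUL4B (0.68 ± 0.05).

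Among 15 further genes reported as AHR targets, 8 of 14 tested rose and 4 fell in the knockout clone (median 0.45). With upper quartile scaling 7 rose and 7 fell (median 0.17, against -0.31 over all genes). EREG, an EGF receptor ligand, had 1894 ± 209 scaled counts in the knockout clone and 124 ± 19.9 in parental cells (3.93 ± 0.11). FLG, the barrier protein filaggrin, had 181 ± 14.8 against 5.70 ± 2.75 scaled counts (4.86 ± 0.30). SERPINB2, a protease inhibitor, had 3116 ± 134 against 1.41 ± 2.44 scaled counts, and the parental level is too near 0 for a fold. With SMYD3 siRNA 8 of 14 rose and 0 fell (median 0.43), among them IL1B at 24.7 ± 1.17 CPM against 7.82 ± 0.922 CPM (1.79 ± 0.10) and FLG at 1.98 ± 0.441 against 0.161 ± 0.0333 CPM (3.68 ± 0.27). SERPINB2 was at 0.386 ± 0.0849 against 0.0429 ± 0.0590 CPM, too near 0 in the controls for a fold. With the ASO 4 of 13 rose and 1 fell (median 0.07), with SERPINB2 at 1.85 ± 0.0461 against 0.604 ± 0.0154 CPM (1.68 ± 0.25), STC2 (0.90 ± 0.10) and NEDD9 (-0.30 ± 0.09), a scaffold protein. The NEDD9 value was -0.46 without ASO replicate 1, and its call was lost without ASO replicate 2 (-0.15, edgeR adjusted p = 0.159). With UHRF1 siRNA 5 of 13 rose and 7 fell (median -0.55). SERPINB2 was at 0.580 ± 0.209 against 3.80 ± 0.746 CPM (-2.64 ± 0.22), CYP2S1, a cytochrome P450 inducible by dioxin, at 10.4 ± 0.863 against 35.3 ± 2.06 CPM (-1.69 ± 0.07), and NEDD9 at 150 ± 3.05 against 53.3 ± 1.15 CPM (1.56 ± 0.05). These genes are known to respond to other inputs as well, among them differentiation and inflammation.

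Enzymes that make or remove tryptophan-derived ligands came next. In the knockout clone 4 of 9 tested rose and 3 fell (median 0.18, against -0.02 over all genes). With upper quartile scaling 3 rose and 4 fell (median -0.10, against -0.31 over all genes). IL4I1, an amino acid oxidase that forms AHR ligands from tryptophan, had 142 ± 8.67 scaled counts in the knockout clone and 13.8 ± 2.32 in parental cells (3.29 ± 0.19). KYNU, which cleaves kynurenines, had 389 ± 28.7 against 900 ± 60.6 scaled counts (-1.21 ± 0.07), and QPRT, which leads on to NAD, had 0.496 ± 0.859 against 20.5 ± 3.12 scaled counts. With SMYD3 siRNA 5 of 10 rose and 2 fell (median 0.35), with IL4I1 at 44.5 ± 4.64 against 21.6 ± 3.97 CPM (1.18 ± 0.13), QPRT (1.11 ± 0.12) and the aminotransferase AADAT (-1.11 ± 0.14). With the ASO 3 of 10 rose and 0 fell (median -0.06). They were IDO1, the interferon-inducible first enzyme of the pathway, at 18.9 ± 0.684 against 5.99 ± 0.310 CPM (1.72 ± 0.10), the kynurenine hydroxylase KMO (1.63 ± 0.16) and IL4I1 (0.78 ± 0.17). With UHRF1 siRNA 5 of 8 rose and 0 fell (median 0.71), led by KMO at 22 ± 0.496 against 5.57 ± 0.454 CPM (2.05 ± 0.09), IL4I1 (2.03 ± 0.06) and IDO1 (1.34 ± 0.13).

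Among other bHLH-PAS proteins, 6 of 10 tested in the knockout clone rose and 3 fell (median 0.42). With upper quartile scaling 5 rose and 3 fell (median 0.15, against -0.31 over all genes). The clock factor BMAL2 was at 3649 ± 97.4 against 1359 ± 26.8 scaled counts (1.42 ± 0.04). NPAS1 and SIM1 fell at low levels. NPAS1 had 5.27 ± 2.33 against 29.6 ± 6.11 scaled counts (-2.34 ± 0.37), and SIM1 had 9.72 ± 4.54 against 25.5 ± 6.55 (-1.36 ± 0.35). With SMYD3 siRNA 2 of 11 rose and 2 fell (median 0.11), led by the hypoxia factor EPAS1 at 307 ± 13 against 182 ± 22.8 CPM (0.88 ± 0.09), NPAS2 (-0.82 ± 0.10) and SIM2 (-0.53 ± 0.11). With the ASO 2 of 10 rose and 1 fell (median 0.02), namely ARNT2 (0.30 ± 0.09), BMAL1 (0.25 ± 0.08) and EPAS1 (-0.26 ± 0.06), each lost in at least 1 leave-out fit (ARNT2 was 0.19 without PBS replicate 1, edgeR adjusted p = 0.284). With UHRF1 siRNA 2 of 10 rose and 6 fell (median -0.18). SIM1 fell at a very low level, with 0.124 ± 0.0880 against 0.521 ± 0.246 CPM (-1.98 ± 0.54). SIM2 (-0.77 ± 0.09) and ARNT2, the close relative of ARNT, fell as well. ARNT2 was at 2.68 ± 0.116 against 7.40 ± 0.542 CPM (-1.40 ± 0.13), while ARNT rose in the same libraries.

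Of the relatives of TIPARP in the PARP family, 11 were tested in each table. In the knockout clone 8 rose and 2 fell (median 0.85). With upper quartile scaling 7 rose and 3 fell (median 0.56, against -0.31 over all genes). The rises were led by ZC3HAV1, an antiviral RNA-binding protein (1.36 ± 0.04), and PARP10 (1.35 ± 0.05), while PARP6 fell (-1.56 ± 0.05). With SMYD3 siRNA 5 rose and 0 fell (median 0.21), led by PARP3 (0.45 ± 0.08), PARP8 (0.37 ± 0.08) and ZC3HAV1 (0.33 ± 0.07). This split depended on the method, with 3 rises and 1 fall under upper quartile scaling and 4 rises and 1 fall in DESeq2. With the ASO 7 rose and 0 fell (median 0.44). PARP12, an interferon-stimulated member, was at 408 ± 2.75 against 203 ± 0.743 CPM with PBS (1.07 ± 0.06), followed by PARP10 (0.74 ± 0.07) and PARP9 (0.72 ± 0.06), in the libraries in which TIPARP was lower. With UHRF1 siRNA 9 rose and 2 fell (median 0.44), led by PARP10 (1.03 ± 0.05), PARP4 (1.00 ± 0.05) and ZC3HAV1 (0.91 ± 0.05). Over the 5 lists together, upper quartile scaling in the knockout table turned 33 rises and 13 falls into 29 rises and 21 falls. The split over all genes became 5386 rises and 9117 falls in place of 7136 and 7210.

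**Figure D4:**
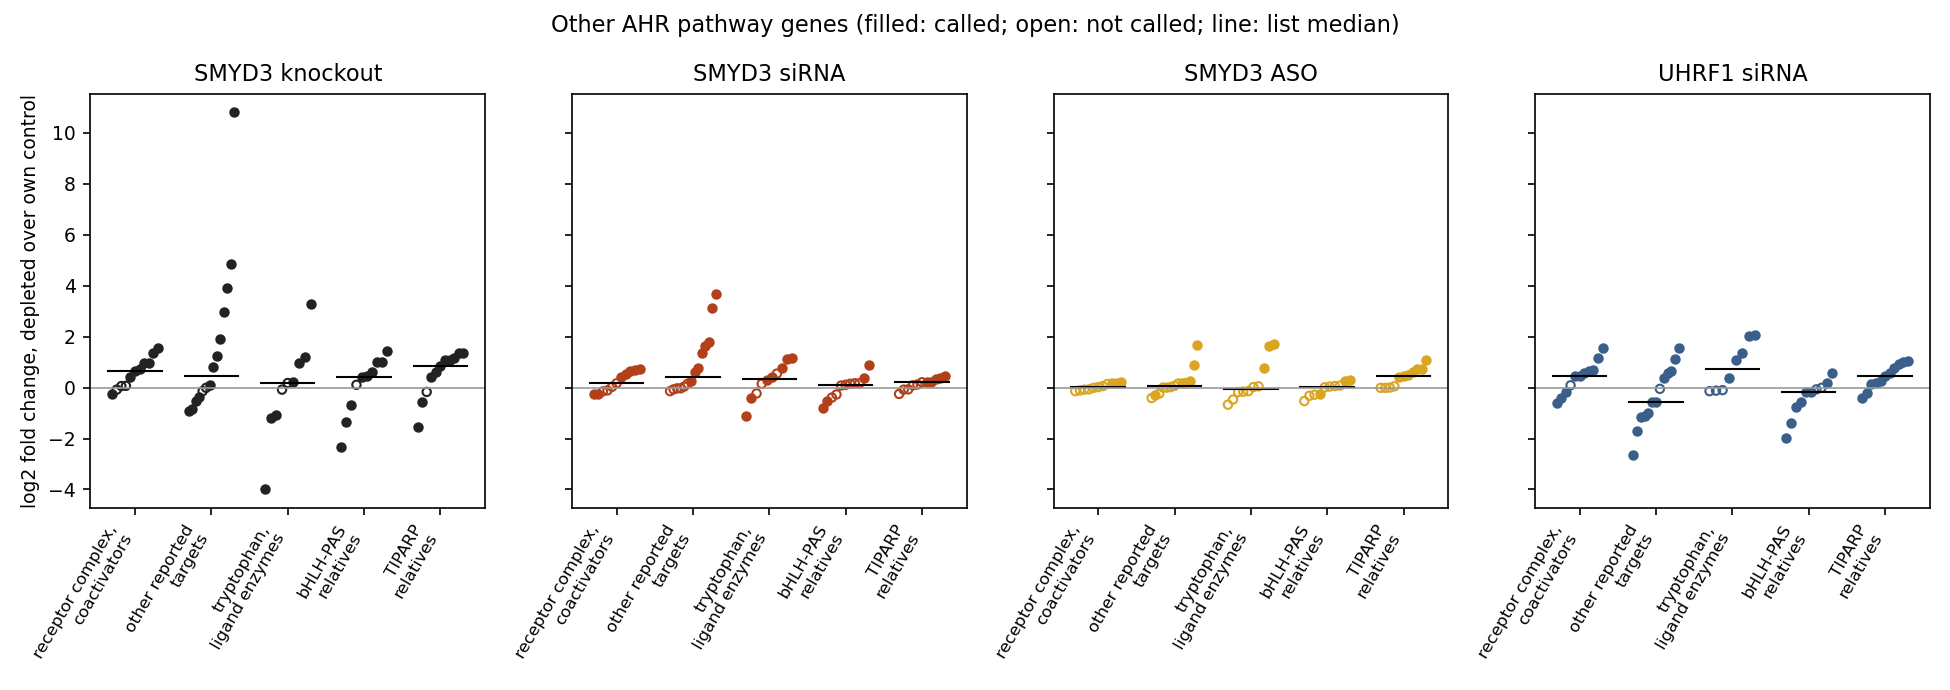
Log2 fold change, depleted over own control, of each tested gene in the 5 pathway lists, 1 panel per comparison; filled points are called, open points are not, and black lines are list medians. The target list spreads most widely in the knockout clone, and with the ASO most points lie near 0 apart from the TIPARP relatives, whose median is 0.44.

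For 6 members the genes with the most similar pattern were sought among 12998 genes tested in all 4 comparisons, by Pearson's r over the 22 libraries of log2(CPM + 1) minus the mean of the control libraries of the same table. These correlations follow mainly the 4 shifts between groups, share libraries and depth, and carry no test. AHR was closest to PDIA6 (r = 0.975), ERAP1 (0.973) and MPZL2 (0.970). ERAP1, which trims peptides for MHC class I, had log2 fold changes of 1.57 in the knockout clone, 1.53 with SMYD3 siRNA, 0.20 with the ASO and -0.59 with UHRF1 siRNA. ARNT was closest to SMARCA1 (0.993). AHRR was closest to PDCD4 (0.99), KLHL36 (0.988) and LZTS3 (0.988). CYP1B1 was closest to ADAM17 (0.982), TBC1D20 (0.964) and HECA (0.964), TIPARP to AP2B1 (0.988), HADHA (0.986) and IARS (0.984), and ALDH3A1 to IDH2 (0.984), ALAD (0.982) and FGFR3 (0.982). Between members, the closest pair was ARNT and AHRR (r = 0.937), and the most opposed was TIPARP and ALDH3A1 (r = -0.868).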

How the data were processed

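The members and gene lists were chosen with earlier results of these data known. Reads were aligned and counted by the authors. The submitters' processing notes name hg38, bcl2fastq and Bowtie, while the sources used here give neither their versions and roles nor the counting tool and its strand setting. Raw counts were deposited for the UHRF1 siRNA, ASO and SMYD3 siRNA comparisons. The knockout table holds, as deposited, a signal: gene counts divided by 1 factor per library, which gave whole reads for 100% of values within 0.01. It lists 17398 gene names, and its filter is not stated. The SMYD3 siRNA table has 23588 lines without a symbol, with 0.849% to 0.917% of its reads, named by GENCODE 29 where possible. The ASO and UHRF1 siRNA tables hold 0 mitochondrial reads. BMAL1, BMAL2, KYAT1 and KYAT3 were matched by older symbols where a table uses them.

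Each comparison was fitted alone over all its genes. Counts were tested with edgeR 4.0.16 (filterByExpr, TMM, robust quasi-likelihood F-test). The knockout table was tested with limma 3.58.1 (trend, robust) on log2(value + 1), with a filter of 10 or more in at least 3 libraries, so low genes have understated folds. The SE given for an edgeR log2 fold change is its absolute unshrunken value divided by the square root of the F statistic. The SE of the knockout comparison is the moderated one of limma. P-values are two-sided with Benjamini-Hochberg adjustment. DESeq2 1.42.0, other scalings and filters, a pseudocount of 5, a replicate block and leave-out fits were alternatives. For the pathway lists these alternatives were chosen after seeing the data. R was 4.3.3 and Python 3.11.15. The fits were tested on simulated data. The labels call the replicates biological but do not say how they were separated, so p-values measure only the spread between these libraries. The rule for named pathway genes was the up to 3 called genes per list and comparison with the largest absolute change.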

Additional observations from a re-analysis of the deposited data

Results flagged for a closer look

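For 5 members every depleted library lay above its controls in 1 SMYD3 comparison and every one below them in another. Groups did not overlap for 85.8% of all genes tested in the knockout, 57.3% with SMYD3 siRNA and 62.0% with the ASO. The share of all genes that lay on opposite sides in this way was not counted, so the pattern cannot be read as particular to the members. The size is given as the difference of the 2 log2 fold changes, and none of these differences was tested. For ARNT the knockout minus SMYD3 siRNA difference was -0.88 and the SMYD3 siRNA minus ASO difference was 0.68. For AHRR these were -2.48 and 1.25. For CYP1A1 the knockout minus ASO difference was 5.00. CYP1B1 differed by 1.01 between the knockout and the ASO and by 1.89 between SMYD3 siRNA and the ASO. TIPARP differed by 1.84 between the knockout and the ASO and by 0.60 between SMYD3 siRNA and the ASO. The ASO comparison has 2 libraries per group and its own control, PBS. The SMYD3 siRNA libraries also had less UHRF1 than their controls (log2 fold change -1.68 ± 0.14), whereas UHRF1 was higher in the knockout clone (0.44 ± 0.03) and with the ASO (0.36 ± 0.06), and its part in these differences was not tested.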

How the results depend on the processing

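No fold change of a member or a named pathway gene reversed under any alternative. Of 297 alternative values of members, 3 lost and 3 gained a call, and of 648 for named pathway genes 18 lost a call, all in the ASO comparison. The number of genes called with the ASO was 3948, and it was 2436 with DESeq2 and 6773 with the replicate block; the causes were not tested. Leaving out 1 library at a time, genes called ranged from 12922 to 13961 in the knockout, 7664 to 9190 with SMYD3 siRNA, 2738 to 4118 with the ASO and 11309 to 11622 with UHRF1 siRNA. Members called were then 7 to 7, 5 to 6, 4 to 5 and 5 to 5, and pathway genes called 43 to 46, 26 to 34, 14 to 27 and 45 to 46. Replicate numbers were not taken to pair the libraries. The deviations of same-numbered libraries correlated with r of -0.0811 to 0.0544 in the knockout table, 0.233, 0.232 and -0.0142 with SMYD3 siRNA, 0.108 for both pairs with the ASO and -0.00638 to 0.00998 with UHRF1 siRNA. The labels name no shared day or batch, in no table of 3 pairs did every library correlate best with its own number, and 2 pairs, as with the ASO, cannot settle it. The replicate block called AHR with the ASO (0.16, edgeR adjusted p = 0.0092) and lost NEDD9 (-0.30, adjusted p = 0.406), and otherwise changed no call of a member or a named pathway gene. In the knockout table upper quartile scaling moved the median of all genes by -0.28. With it ARNT was -0.73 and CYP1B1 0.16, while relative to that median they were -0.43 and 0.47, against -0.44 and 0.46 as reported. Leaving out mitochondrial genes kept the deposited scaling of the knockout table, so it does not test that scaling. CYP1A1 with SMYD3 siRNA rests on 16 and 55 reads, and its libraries spread more than counting error. A pseudocount of 5 gave -2.22 for QPRT in the knockout, against -3.98 with a pseudocount of 1.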
